A study of Rattus norvegicus with 12 samples.

Results

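Dystrophin and the proteins gathered around it at the sarcolemma, the plasma membrane of striated muscle cells, were followed at the RNA level in rat hearts after myocardial infarction (MI) with and without urolithin A (UA). The 9 genes were Dmd, Utrn, Dag1, Sgca, Sgcb, Sgcd, Sntb1, Dysf and Cav3, chosen by symbol among the 30560 genes of the count table, and all 9 had enough reads to be tested. Each of the 12 libraries came from 1 male Wistar rat operated at 7 weeks of age, with 4 rats per group. Sham rats had the chest opened without ligation and received the vehicle, 0.5% carboxymethylcellulose. MI rats had the left anterior descending artery tied permanently, aiming at an infarct of about 40% of the left ventricle, and received the same vehicle. MI + UA rats had the same ligation and were gavaged daily with UA, a gut microbial metabolite of ellagitannins, for 8 weeks. By the sample labels dosing began 24 hours after surgery from a preparation of 50 mg/ml; the sources used here do not give one dose and start, and neither enters a test. RNA was taken from formalin-fixed, paraffin-embedded sections of 20 µm of the left ventricle, so infarct, border and remote muscle were not separated.

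Dystrophin is a long rod that ties cortical actin to the membrane, where it meets dystroglycan, and dystroglycan in turn grips laminin outside the cell. The sarcoglycans form a group of membrane proteins that steadies dystroglycan, and the syntrophins carry signalling proteins on the inner face. Utrophin is an autosomal relative of dystrophin that can take its place in the complex, dysferlin patches torn membrane in a calcium-dependent way, and caveolin-3 shapes the caveolae of muscle. Inherited loss of many of these proteins gives muscular dystrophy, often with cardiomyopathy. The single count given for Dmd covers every transcript of the gene, and the long muscle form cannot be told apart from the short forms made from internal starts.

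The 250 bases before the annotated start were available for 7 of the 9 genes (RefSeq, build GRCr8, not the build of the counts, with 9 windows in all, 3 of them for Dmd). 4 are shown because Dmd and Sgca were lower after infarction, Utrn was level, and Cav3 is the muscle caveolin set against Cav1 below. Capitals mark matches, on either strand, to motifs bound by muscle transcription factors: the E-box CANNTG, the MCAT motif CATTCC, the CArG box and the MEF2 box. No matches overlapped each other.
Dmd, chrX:51205836-51206085, plus strand: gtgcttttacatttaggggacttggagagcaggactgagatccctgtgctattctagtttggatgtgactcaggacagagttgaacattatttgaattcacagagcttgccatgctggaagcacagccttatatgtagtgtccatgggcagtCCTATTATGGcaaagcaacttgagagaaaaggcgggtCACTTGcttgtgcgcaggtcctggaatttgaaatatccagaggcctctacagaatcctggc
Sgca, chr10:80416076-80416325, minus strand: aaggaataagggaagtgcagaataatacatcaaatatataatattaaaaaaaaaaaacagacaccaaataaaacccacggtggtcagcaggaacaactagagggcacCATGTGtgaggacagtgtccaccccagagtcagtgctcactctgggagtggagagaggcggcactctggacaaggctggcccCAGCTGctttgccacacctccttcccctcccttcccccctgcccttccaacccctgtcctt
Utrn, chr1:9044488-9044737, minus strand: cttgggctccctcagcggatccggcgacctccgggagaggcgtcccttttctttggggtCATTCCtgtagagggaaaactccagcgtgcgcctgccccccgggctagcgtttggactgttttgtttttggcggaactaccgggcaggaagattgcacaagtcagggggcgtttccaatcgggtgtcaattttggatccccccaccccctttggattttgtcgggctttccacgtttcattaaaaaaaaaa
Cav3, chr4:147137743-147137992, plus strand: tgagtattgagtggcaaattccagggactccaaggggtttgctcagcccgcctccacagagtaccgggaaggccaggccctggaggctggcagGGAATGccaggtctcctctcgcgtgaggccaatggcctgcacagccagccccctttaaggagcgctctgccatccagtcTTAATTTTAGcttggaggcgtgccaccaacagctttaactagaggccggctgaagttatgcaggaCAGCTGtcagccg
The Dmd window held a CArG box ending 88 bases and an E-box ending 55 bases before the start. Sgca held E-boxes at 137 and 55 bases, Utrn an MCAT motif at 185 bases, and Cav3 an MCAT motif at 151, a MEF2 box at 68 and an E-box at 7 bases. Sgcd had an E-box at 40 bases, while the windows of Sgcb and Dysf and the other Dmd windows held none of these letters. Of 33469 rat windows of this length, 65.5% held an E-box, 12.1% an MCAT motif, 1.5% a CArG box and 2.96% a MEF2 box. These are matches of letters, and binding was not measured.

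Reads on genes numbered 6228706 to 19031695 per library, of which the mitochondrially encoded genes took 50.2% to 58.6% and the 9 genes together 6397 to 18311 reads. Levels are given as CPM, which puts libraries of unequal depth on one scale with TMM factors, and these set the bulk of genes level between libraries. They are not per length, so levels of different genes are not compared. Values per rat are listed in the order of rats 12, 17, 32 and 38 in Sham, 36, 57, 61 and 89 in MI and 29, 58, 64 and 66 in MI + UA. Fold changes come from edgeR's quasi-likelihood test over 18182 genes with p-values adjusted across all of them, and "rose" or "fell" stands for an adjusted p under 0.05. With the 4 rats of each group as the only replicates, all errors are between rats. Cardiomyocyte markers were lower after infarction on the TMM scale, as 12 of 14 fell (summed level 16800 to 19500 CPM in Sham, 12700 to 14100 in MI and 12500 to 15100 in MI + UA, with none of the 14 at 0). In tissue RNA, fewer cardiomyocytes and less of a transcript per cardiomyocyte cannot be told apart. Every comparison was therefore also run with libraries scaled to these 14 markers, a scale on which the median log2 fold change of the 11986 genes averaging at least 1 in log2 CPM moved from 0 to 0.43 in MI versus Sham and to 0.41 in MI + UA versus Sham.

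Dmd (ENSRNOG00000046366) and the sarcoglycan genes Sgca, Sgcb and Sgcd fell in MI compared to Sham on the TMM scale, by 22.2% to 36%, with no overlap between the rats of the groups, whereas Utrn and Dag1 were nearly level; scaled to cardiomyocyte markers the Dmd difference turned to 0.058 and the sarcoglycan differences shrank without reaching the threshold. No member was called between MI + UA and MI. In all, 4 of 9 members (44.4%) were called in MI versus Sham and all were lower, where 11.4% of all genes were called and 5.53% were called lower. Rats of the 2 groups did not overlap for 6 of the 9 members, all lower in MI, against 7.55% of all genes. At an unadjusted p under 0.05 the members numbered 6 of 9, against 23.9% of all genes. The share of reads that lay on genes also separated Sham and MI, at 46.9% to 48.3% in Sham and 43.3% to 44.8% in MI (42.9% to 47.2% in MI + UA). It was taken over these reads and all that the counter left unassigned to a gene. The part of this share in these differences was not tested. The median log2 fold change of the members was -0.29, against 0.03 over all genes.

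Dmd, which encodes dystrophin, measured 368, 307, 350 and 337 CPM in the Sham rats, 264, 296, 249 and 251 CPM in the MI rats and 276, 280, 227 and 330 CPM in the MI + UA rats. Each MI rat was below each Sham rat, but the highest MI + UA rat, rat 66, lay within the Sham range. The means were 340 ± 25.8 (SD, n = 4), 265 ± 21.7 (SD, n = 4) and 278 ± 42.3 CPM (SD, n = 4). In MI versus Sham this was a log2 fold change of -0.36 (standard error 0.10, 95% interval -0.57 to -0.16, edgeR adjusted p = 0.0198). The call depended on single libraries. Leaving out Sham rat 12 or 32 or MI rat 61 or 89 gave adjusted p-values of 0.0629, 0.0583, 0.0686 and 0.0623, with log2 fold changes between -0.35 and -0.32. In MI + UA versus Sham, Dmd was at -0.29 (95% interval -0.50 to -0.08, edgeR adjusted p = 0.072), and without rat 66 at -0.38 (edgeR adjusted p = 0.0101). Rat 66 was counted as MI + UA from its sample label, although another list in the sources places it with the vehicle-treated MI rats.

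Utrn (ENSRNOG00000011058), the utrophin gene, measured 196, 193, 192 and 173 CPM in Sham, 192, 184, 189 and 187 CPM in MI and 191, 182, 188 and 192 CPM in MI + UA. All 12 rats lay close together and the groups overlapped. Group means were 189 ± 10.6, 188 ± 3.43 and 188 ± 4.3 CPM (SD, n = 4 each). The interval of the log2 difference ran from -0.15 to 0.14 for MI versus Sham (edgeR adjusted p = 0.985), which bounds a change in either direction. Scaled to cardiomyocyte markers the difference was 0.42 (edgeR adjusted p = 0.00221), next to 0.43 for the median of those 11986 genes on that scale. Dag1 (ENSRNOG00000019400), which encodes both chains of dystroglycan, also lay near its Sham level. It measured 252, 254, 273 and 260 CPM in Sham, 240, 239, 258 and 238 CPM in MI and 279, 247, 268 and 240 CPM in MI + UA. MI was the lower of the pair in 14 of 16 pairs of an MI and a Sham rat, yet the groups overlapped through MI rat 61. The log2 fold change in MI versus Sham was -0.09 on the TMM scale (95% interval -0.25 to 0.06, edgeR adjusted p = 0.509) and 0.34 when scaled to cardiomyocyte markers (edgeR adjusted p = 0.00768).

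**Figure D1:**
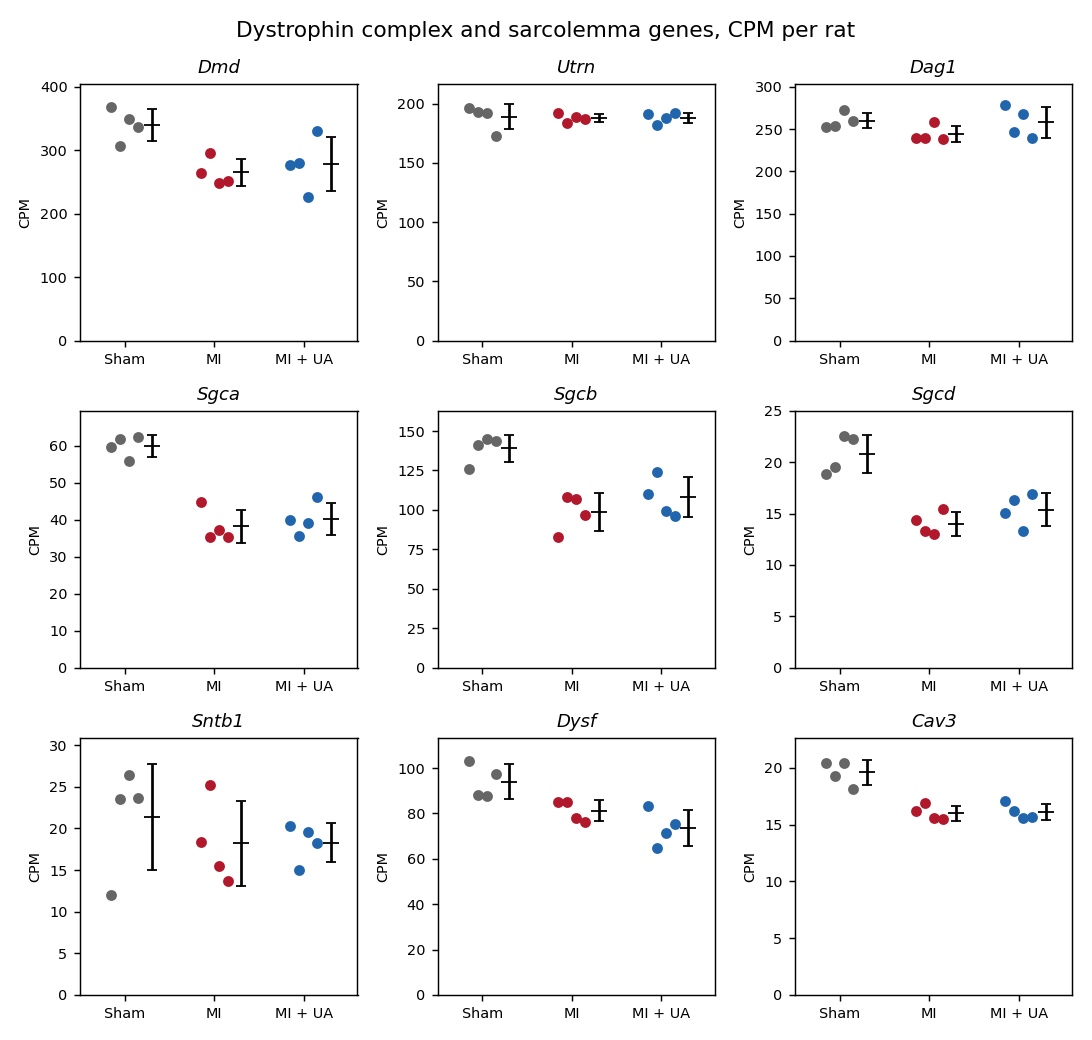
Level of each of the 9 genes in CPM (vertical axes from 0, one scale per gene) in every Sham (grey), MI (red) and MI + UA (blue) rat, in order of rat number, with the group mean and SD (n = 4) in black. For Sgca all MI and MI + UA rats lay at or below 46.2 CPM and all Sham rats at or above 55.9 CPM, while Utrn stayed between 173 and 196 CPM in all 12 rats.

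The sarcoglycans gave the clearest differences of the set. Sgca (ENSRNOG00000003998), for alpha-sarcoglycan, the form restricted to striated muscle, measured 59.6, 61.8, 55.9 and 62.5 CPM in Sham, 44.9, 35.4, 37.3 and 35.4 CPM in MI and 39.9, 35.7, 39.2 and 46.2 CPM in MI + UA. Every infarcted rat, treated or not, was below every Sham rat. Sgca fell from 59.9 ± 2.96 to 38.2 ± 4.52 CPM (SD, n = 4 each), or by 36%, a log2 fold change of -0.64 (standard error 0.10, 95% interval -0.85 to -0.44, edgeR adjusted p = 0.000203). Scaled to cardiomyocyte markers it was still lower, at -0.22, with an edgeR adjusted p of 0.114.

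Sgcb (ENSRNOG00000002135), for beta-sarcoglycan, measured 126, 141, 145 and 144 CPM in Sham, 82.6, 108, 107 and 97 CPM in MI and 110, 124, 99.5 and 96 CPM in MI + UA. Again the infarcted rats all lay below the Sham rats, although MI + UA rat 58 came close to the lowest Sham rat. Sgcb fell by 29.1% in MI (log2 fold change -0.50, standard error 0.10, edgeR adjusted p = 0.00207). Sgcd (ENSRNOG00000002372), for delta-sarcoglycan, measured 18.9, 19.5, 22.6 and 22.3 CPM in Sham, 14.4, 13.3, 13 and 15.5 CPM in MI and 15.1, 16.3, 13.3 and 16.9 CPM in MI + UA. The infarcted groups overlapped each other and neither overlapped Sham. Sgcd fell by 32.2% in MI (log2 fold change -0.56, standard error 0.11, edgeR adjusted p = 0.00248). Sgca, Sgcb and Sgcd were called in 8 of 8 fits that each left out 1 rat of this comparison. Scaled to cardiomyocyte markers, Sgcb and Sgcd were at -0.06 and -0.13 (edgeR adjusted p = 0.712 and 0.461).

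Sntb1 (ENSRNOG00000004821), for beta-1-syntrophin, had the largest pooled within-group spread of the members. Its levels were 12, 23.5, 26.4 and 23.7 CPM in Sham, 18.4, 25.2, 15.5 and 13.7 CPM in MI and 20.3, 15, 19.6 and 18.2 CPM in MI + UA. Sham rat 12 was lower than each of the other 11 rats, and all groups overlapped. The log2 fold change in MI versus Sham was -0.25 with a 95% interval from -0.66 to 0.16 (edgeR adjusted p = 0.49), an interval that holds both 0 and the differences of Sgcb and Sgcd. When single rats were left out this log2 fold change ranged from -0.45 to -0.13 and was called in 0 of 8 fits (smallest edgeR adjusted p = 0.0941).

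Dysf and Cav3 were lower in all infarcted rats on the TMM scale without being called in MI, and both turned positive (0.21 and 0.14, neither called) when scaled to cardiomyocyte markers. Dysf (ENSRNOG00000032788), for dysferlin, measured 103, 88, 87.7 and 97.4 CPM in Sham, 85.2, 85, 78.2 and 76.2 CPM in MI and 83.4, 64.6, 71.6 and 75.2 CPM in MI + UA. Neither infarcted group overlapped Sham. The log2 fold change was -0.22 in MI versus Sham (95% interval -0.40 to -0.03, edgeR adjusted p = 0.139). In MI + UA versus Sham it was -0.35 (standard error 0.09, edgeR adjusted p = 0.0155). That Dysf passed the threshold against Sham with UA and not without it does not make the infarcted groups different, and their own difference was -0.13 (95% interval -0.32 to 0.05). Cav3 (ENSRNOG00000005798), for caveolin-3, measured 20.4, 19.3, 20.4 and 18.1 CPM in Sham, 16.2, 16.9, 15.6 and 15.5 CPM in MI and 17.1, 16.2, 15.6 and 15.7 CPM in MI + UA. The Sham rats were all above the others. Its log2 fold change in MI versus Sham was -0.29 (95% interval -0.50 to -0.08, edgeR adjusted p = 0.0677), and edgeR's own expression filter, which tests fewer genes, brought the adjusted p to 0.0457.

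The comparison of MI + UA with MI asked whether UA altered these transcripts in the infarcted heart. It called 0 of 9 members and 0 genes in all in edgeR and in DESeq2 (3 genes in edgeR without the filter on low counts and 1 without MI rat 36, all lower and none a member); at an unadjusted p under 0.05 the counts in edgeR were 0 of 9 members and 3.79% of all genes. The groups overlapped for each of the 9 members, where 2.34% of all genes did not overlap. The log2 differences were small for Dmd (0.07, 95% interval -0.13 to 0.28), Sgca (0.08, -0.13 to 0.28), Sgcb (0.12, -0.08 to 0.33), Sgcd (0.13, -0.10 to 0.37) and Dag1 (0.08, -0.07 to 0.24). Cav3 and Sntb1 were at 0.01 (-0.19 to 0.22) and 0.04 (-0.36 to 0.44). The intervals bound an effect of UA on each gene, most tightly for Utrn (-0.15 to 0.15). Against the same Sham rats, MI + UA gave 4 of 9 members called, all lower on the TMM scale (4.27% of all genes were called lower, and 9.44% in either direction), and for 5 of 9 the groups did not overlap, against 6.46% of all genes that were lower without overlap. Sgca was at -0.57 (edgeR adjusted p = 0.000841), Sgcb at -0.37 (0.0187), Sgcd at -0.43 (0.0186) and Dysf at -0.35; scaled to cardiomyocyte markers Sgca and Sgcd remained below 0 at -0.16 and -0.0097 while Sgcb and Dysf turned to 0.062 and 0.06, and none of these was called. The count fell to 2 without Sham rat 32, to 1 without Sham rat 38 and to 2 without MI + UA rat 64, and Sgca was the member called in 8 of 8 such fits. Sgcb lost its call without any of these 3 rats, Sgcd without these or MI + UA rat 29, and Dysf without Sham rat 12 or 38 or MI + UA rat 58, with edgeR adjusted p-values from 0.0521 to 0.0697. Both comparisons with Sham share the Sham rats, and the comparisons of MI with each other group share the MI rats, so they are not separate evidence.

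**Figure D2:**
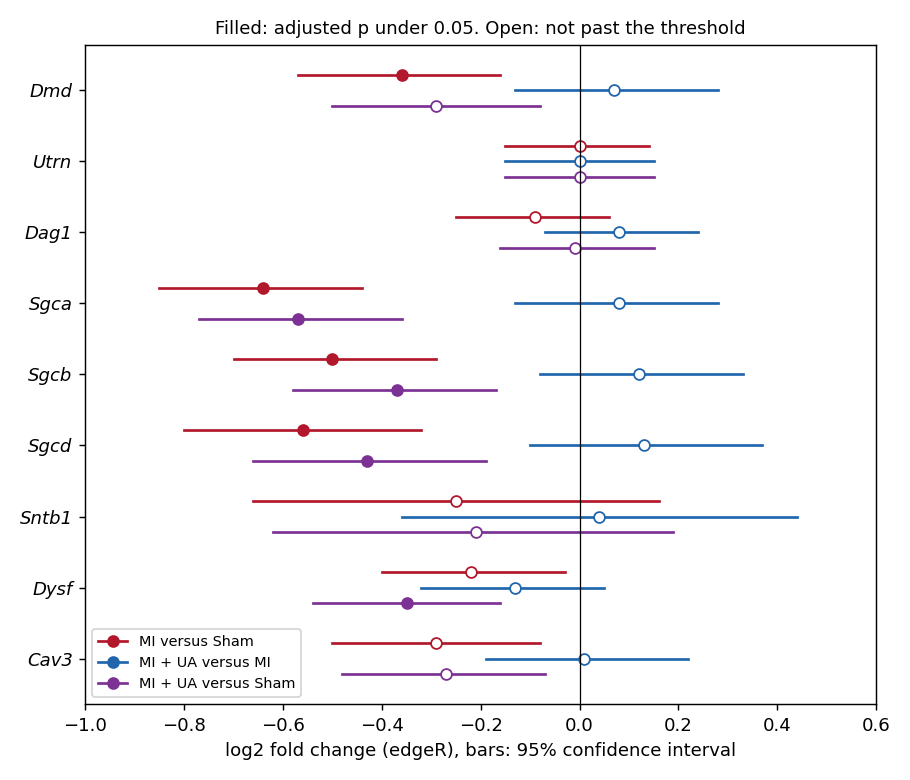
Log2 fold change of each gene on the TMM scale with its 95% interval for MI versus Sham (red), MI + UA versus MI (blue) and MI + UA versus Sham (purple), filled where the edgeR adjusted p was under 0.05. The sarcoglycan genes sat between -0.64 and -0.37 in both comparisons with Sham, and the intervals of MI + UA versus MI covered 0 for all 9 genes.

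Ratios of a member to a relative within a library do not depend on library scaling. They were log2 ratios of counts, not corrected for length, tested in exact two-sided permutation tests with 12 tests adjusted together, where 4 rats against 4 cannot go below p = 0.0286. The utrophin to dystrophin ratio was -0.91, -0.67, -0.86 and -0.96 in Sham, -0.46, -0.68, -0.40 and -0.43 in MI and -0.53, -0.62, -0.27 and -0.79 in MI + UA. MI rats were higher except that rat 57 lay just inside the Sham range. The mean ratio was 1.28-fold higher in MI than in Sham (difference 0.36 on the log2 scale, exact permutation p = 0.0571, adjusted 0.114), and without MI rat 57 the difference was 0.42 (exact permutation p = 0.0286). MI + UA differed from MI by -0.06 (exact permutation p = 0.629).

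Myoferlin, encoded by Myof, is the closest relative of dysferlin and is found in many cell types besides muscle. The Myof to Dysf ratio was -2.56, -2.05, -2.21 and -2.18 in Sham, -1.03, -0.86, -0.64 and -0.36 in MI and -1.16, -0.22, -0.12 and -1.04 in MI + UA. Infarcted and Sham rats did not overlap, and the MI + UA rats fell into a high pair, rats 58 and 64, and a low pair. The ratio was 2.88-fold higher in MI than in Sham (exact permutation p = 0.0286, adjusted 0.0857). For epsilon-sarcoglycan, which replaces alpha-sarcoglycan outside striated muscle, the Sgce to Sgca ratio was -2.45, -2.60, -2.19 and -2.23 in Sham, -1.86, -1.85, -1.23 and -1.43 in MI and -1.41, -1.02, -1.53 and -1.79 in MI + UA. This ratio too was higher in every infarcted rat, 1.71-fold in MI (exact permutation p = 0.0286, adjusted 0.0857). Sgce itself measured 11.6 ± 1.39 CPM in Sham and 12.7 ± 2.49 CPM in MI (SD, n = 4 each, edgeR adjusted p = 0.622). In contrast the ratio of Cav1, the caveolin of endothelium and many other cells, to Cav3 averaged 3.31 ± 0.09 in Sham, 3.37 ± 0.28 in MI and 3.32 ± 0.10 in MI + UA (SD, n = 4 each). Its difference between MI and Sham was 0.06 (exact permutation p = 0.714) with wide spread among MI rats.

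**Figure D3:**
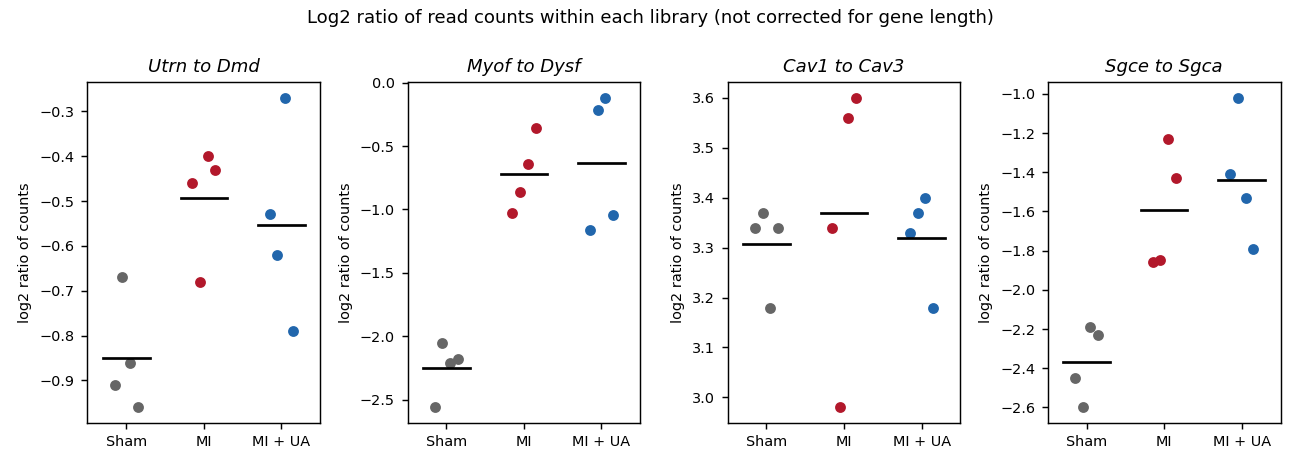
Log2 ratio of read counts within each library (vertical axes, not corrected for gene length, one scale per ratio and not from 0) for 4 gene pairs in Sham (grey), MI (red) and MI + UA (blue) rats, with group means as bars. Myof to Dysf and Sgce to Sgca did not overlap between Sham and either infarcted group, and Cav1 to Cav3 overlapped throughout.

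The remaining subunits of the complex were mixed. Of 10 tested, 1 rose and 1 fell in MI versus Sham, where 5.82% of all genes rose, and their median was -0.02. Sspn, for sarcospan, which binds the sarcoglycans, fell from 253 ± 18.7 to 186 ± 7.83 CPM (SD, n = 4 each, edgeR adjusted p = 0.0011) and was at -0.013 when scaled to cardiomyocyte markers. Sntb2, for beta-2-syntrophin, rose from 6.31 ± 1.15 to 9.66 ± 0.287 CPM (SD, n = 4 each, edgeR adjusted p = 0.0105). Of 17 genes that glycosylate dystroglycan so that it binds laminin, 0 passed in edgeR, where 11.4% of all genes were called. Among them 2 had an unadjusted p under 0.05, and reads over all 12 libraries went as low as 24. DESeq2 called 0 of the 14 to which it gave an adjusted p, and edgeR on the 2 groups alone called 1, lower. Of 6 genes for ligands of dystroglycan 2 rose (33.3%, against 5.82% of all genes). One was Slit2, an axon guidance ligand (73.5% higher, edgeR adjusted p = 0.00864). Lama2, the laminin chain of muscle basement membrane, measured 301 to 309 CPM in Sham, 271 to 283 CPM in MI and 278 to 302 CPM in MI + UA. Its MI and Sham rats did not overlap, and it was not called lower in edgeR (log2 fold change -0.14, adjusted p = 0.228) but was in DESeq2 (adjusted p = 0.0484).

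Of 19 genes of membrane repair around dysferlin, 6 rose and 0 fell in edgeR in MI versus Sham, while 7 were numerically lower and the median was 0.07. DESeq2 called 6 higher and 1 lower, Ehd4 (-0.20 on the log2 scale, DESeq2 adjusted p = 0.0379). Myof rose from 19.7 ± 1.93 to 49.5 ± 7.36 CPM (SD, n = 4 each, edgeR adjusted p = 2.51e-05). Of the annexins, calcium-dependent membrane binders, the smallest p-values were those of Anxa2, which rose, at 45.4 ± 1.14 and 68.3 ± 4.18 CPM (edgeR adjusted p = 0.000111), and of Anxa1, which also rose, at 19.4 ± 3.76 and 35.7 ± 6.41 CPM (edgeR adjusted p = 0.0022), each SD with n = 4. Myof, Anxa2 and Anxa1 were called in 8 of 8 fits without 1 rat. Trim72, for the muscle protein MG53 that seeds repair patches, was at 63.2 ± 4.77 CPM in Sham, 52.4 ± 7.75 in MI and 45.9 ± 5.17 in MI + UA (SD, n = 4 each). It fell in MI + UA versus Sham (27% lower, edgeR adjusted p = 0.0104), as did Ehd4 (20.1% lower, edgeR adjusted p = 0.00944), and on the marker scale they were at -0.038 and 0.098. In edgeR neither was called in MI versus Sham or in MI + UA versus MI. Fibroblast markers rose in 7 of 10 genes (summed level 1140 to 1440 CPM in Sham and 2200 to 3590 in MI) and macrophage markers in 9 of 10 (132 to 165 and 265 to 423 CPM), with none of either list at 0, and their part in the rises of Myof, Anxa2 and Anxa1 was not tested.

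Of 7 caveolar genes, with a median of -0.27, 0 rose and 2 fell, Cavin4, the muscle cavin (23.5% lower, edgeR adjusted p = 0.00996), and Pacsin2, a membrane-bending protein (17.9% lower, edgeR adjusted p = 0.028), and on the marker scale they were at 0.046 and 0.15. Cavin4 lost its call without Sham rat 32 (0.0526), and Pacsin2 in 6 of 8 such fits. Of 21 genes for costameres, the ribs that join the outermost myofibrils to the sarcolemma, 4 fell and 3 rose. Itga7, the laminin-binding integrin chain of muscle, fell from 120 ± 9.51 to 81.7 ± 6.28 CPM (SD, n = 4 each, edgeR adjusted p = 0.000461), and was at -0.12 on the marker scale. Ank2, an ankyrin (23.5% lower, edgeR adjusted p = 0.00509), and Des, the muscle intermediate filament desmin (19% lower, edgeR adjusted p = 0.0189), turned to 0.034 and 0.13 on that scale, and Des lost its call in 4 of 8 fits without 1 rat. Ilk, integrin-linked kinase (29.2% higher, edgeR adjusted p = 0.0146), and Itgb1, the common integrin beta chain (21.6% higher, edgeR adjusted p = 0.0345), rose and kept their calls in 6 and 4 of 8 such fits. None of these 6 lists had a gene called in MI + UA versus MI.

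**Figure D4:**
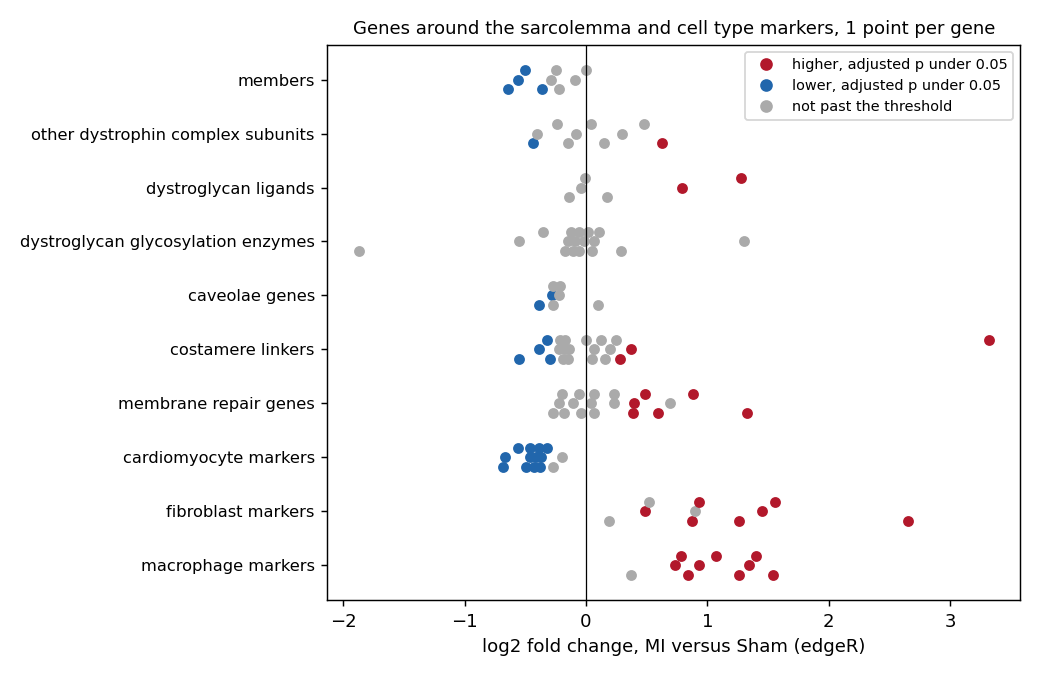
Log2 fold change in MI versus Sham on the TMM scale (horizontal axis), 1 point per gene, for the 9 members, 6 lists of related genes and 3 lists of cell type markers, coloured by direction where the edgeR adjusted p was under 0.05 (vertical scatter within a list has no meaning). Members had a median of -0.29 and cardiomyocyte markers of -0.42, while fibroblast and macrophage markers had medians of 0.91 and 1.00.

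On the TMM scale the median log2 fold change of the cardiomyocyte markers was -0.42 in MI versus Sham and -0.40 in MI + UA versus Sham. That of the members was -0.29 in each. In MI versus Sham, Sgca, Sgcb and Sgcd lay below the marker median and Dmd, Cav3, Sntb1, Dysf, Dag1 and Utrn above it, whereas in MI + UA versus Sham Sgcb lay above it as well. Scaled to the markers, 37.1% of all genes were called in MI versus Sham, 6684 higher and 61 lower, and among members Utrn and Dag1 were called higher, each at or below the median of the 11986 genes on that scale. Whether cardiomyocyte content accounts for the members' falls was not tested. Endothelial markers summed to 811 to 927 CPM in Sham and 746 to 869 CPM in MI, with 1 of 9 lower, and smooth muscle and pericyte markers to 606 to 628 and 610 to 762 CPM, with 4 of 8 higher. Skeletal muscle markers were few in reads, 13.6 to 17 CPM summed in Sham and 17.1 to 29.3 in MI, with Tnnt3 the 1 of 6 tested that rose.

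**Figure D5:**
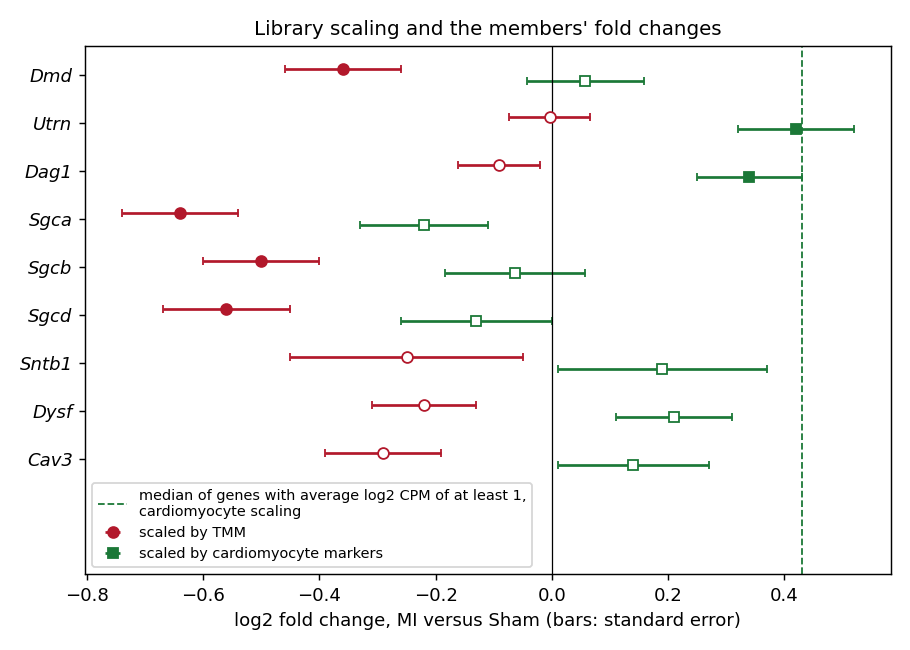
Log2 fold change in MI versus Sham with its standard error under TMM scaling (red circles) and under scaling to 14 cardiomyocyte markers (green squares), filled where the edgeR adjusted p was under 0.05, with the median of the 11986 genes averaging at least 1 in log2 CPM on the marker scale as a dashed line at 0.43. Dmd moved from -0.36 to 0.058, Sgca from -0.64 to -0.22 and Utrn from near 0 to 0.42.

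Within groups the members were unequally steady. The pooled within-group SD of log2 CPM was 0.054 for Utrn, 0.068 for Cav3 and 0.072 for Dag1, below the median of 0.14 over 5389 genes of at least 4 in average log2 CPM. It was 0.12 for Dysf, 0.13 for Sgcd, 0.14 for Sgca, 0.15 for Sgcb, 0.16 for Dmd and 0.39 for Sntb1. With group means removed, the 36 pairs of members had a median Pearson r of 0.08 over 12 libraries, from -0.77 for Sgca with Sgcb to 0.53 for Utrn with Cav3. The points share the library and its scaling. By the same measure the genes most like Dmd among 10929 were Tecrl (r = 0.945), Ccnl1 (0.944) and Rnf135 (0.942), and those most like Utrn were Poli (0.982), Ntaq1 (0.953) and Asl (0.922); these are the top of a long ranking in few libraries and are given as a description.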

How the data were processed

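RNA-seq libraries from 12 rat hearts were analysed, 1 per rat and 4 per group, grouped by the sample labels. By the protocols ribosomal RNA was depleted and libraries were strand-specific, whereas the labels name polyA RNA as the molecule. According to the methods and the submitters' processing notes, the authors aligned reads to mRatBN7.2 with STAR 2.6.1c, counted reads per Ensembl gene with HTSeq and summarised quality with MultiQC 1.8. The deposited values are raw counts, without normalization. The 5 summary lines of the counter were left out; 7162 of 30560 genes had no symbol. The authors excluded 1 further MI + UA library, not analysed here. Rat 66 was kept as MI + UA.

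Genes reaching a total of 10 counts over all libraries (18182) entered edgeR 4.0.16 (quasi-likelihood, TMM, the 3 groups in one fit, Benjamini-Hochberg) in R 4.3.3 with limma 3.58.1, a call being an adjusted p under 0.05. In counts simulated for MI versus Sham over 17859 genes, 100 genes averaging at least 1 in log2 CPM were changed at each size. Of these, 30% of changes of 0.5 and 87% of changes of 1 (log2) were recovered, with 9 unchanged genes called. Fewer genes were changed than were called in the data, and they were not picked to match the members' levels. These shares are therefore not the power for the members. Ratios used a pseudocount of 1 and all 70 groupings of the rats. Alternatives were DESeq2 1.42.0, other filters and scalings, the 2 groups alone and leaving out each rat. Related genes are named where they had the smallest p among those called, up to 3 per list and direction; for likeness, the 3 highest correlations with Dmd and with Utrn. Some genes that this rule names are not reported here. Tnnt3 and Lama2 were named after their values were seen. The members and lists were chosen with earlier results of these data known. Figures were drawn with matplotlib 3.10.9 (Python 3.11.15).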

Additional observations from a re-analysis of the deposited data

Results flagged for a closer look

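Among 42 sets of 4 rats (members, ratios and the share of reads on genes, by group), 6 had a rat set apart from the other 3 by more than 0.829 of the group's range, and chance gives about 1 in 20. Sntb1 in Sham was lowest in rat 12, with a gap of 0.852 of the range (log2 CPM 3.6, the nearest rat 4.56). Utrn in Sham was lowest in rat 38, at 0.834 (7.44 and 7.59). The Cav1 to Cav3 ratio in Sham was lowest in rat 32, at 0.835 (3.18 and 3.34). Dag1 in MI was highest in rat 61, at 0.896 (8.01 and 7.91), and the same rat had the lowest share of reads on genes in MI, at 0.867 (43.3% and 44.6%). In MI + UA this share was lowest in rat 58, at 0.884 (42.9% and 46.7%).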

How the results depend on the processing

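The member counts in MI versus Sham (4) ranged from 3 to 4 when single rats were left out, and those in MI + UA versus Sham (4) from 1 to 5; scaling to cardiomyocyte markers lost all 4 in each and instead called 2, Utrn and Dag1, both higher, where that scale called 37.1% of all genes in MI versus Sham and 34.7% (6265 higher, 36 lower) in MI + UA versus Sham. MI + UA versus MI had 0 in all 15 alternatives. With DESeq2, Dmd passed in MI + UA versus Sham (adjusted p = 0.0382). On the marker scale the log2 fold changes in MI versus Sham turned to 0.058 for Dmd, 0.34 for Dag1, 0.19 for Sntb1, 0.42 for Utrn, 0.21 for Dysf and 0.14 for Cav3, and in MI + UA versus Sham to 0.12, 0.42, 0.21, 0.41, 0.06 and 0.14, with Sgcb at 0.062. These turns follow from the scaling, which raised the median of the 11986 genes averaging at least 1 in log2 CPM by about the fall of the markers.

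Without 1 rat, signs turned only for differences near 0. In MI + UA versus MI the ranges were -0.0093 to 0.016 for Utrn, -0.082 to 0.21 for Sntb1, -0.02 to 0.038 for Cav3, -0.021 to 0.16 for Dmd and -0.00021 to 0.17 for Sgca. They were -0.044 to 0.016 for Utrn in MI versus Sham, and -0.042 to 0.018 for Utrn and -0.035 to 0.026 for Dag1 in MI + UA versus Sham. The Cav1 to Cav3 ratio ranged from -0.016 to 0.19 in MI versus Sham, -0.18 to 0.028 in MI + UA versus MI and -0.031 to 0.057 in MI + UA versus Sham. In MI + UA versus MI, Myof to Dysf ranged from -0.085 to 0.26 and Utrn to Dmd from -0.15 to 0.018, and in MI versus Sham Utrn to Dmd from 0.32 to 0.42. Utrn in MI + UA versus MI also turned with DESeq2 (-6.1e-05), its size factors in edgeR (-0.00023), edgeR's expression filter (-0.0034), TMM without mitochondrially encoded genes (-0.00064), marker scaling (-0.006) and the fit of the 2 groups alone (-0.0027). Pseudocounts of 0.5 and 5 turned no ratio.

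No paired analysis was possible because each rat belongs to a single group. With 4 rats per group, changes as small as those of the members can be missed, and Sgcd, Sntb1 and Cav3 rest on as few as 85, 96 and 108 reads in a library. Reads of dystrophin isoforms were not separated, and the sections mix scar and muscle.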
